A study of Mus musculus with 15 samples.

Results

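The 52 genes described here build and run the machinery of cell division: the mitotic spindle, the kinetochore and the apparatus of cytokinesis. They were taken by name from a table of 18804 genes measured by RNA sequencing, and all 52 had enough reads to be among the 14293 genes that were tested. The cells were white adipocytes in culture, grown from mesenchymal stem cells (progenitors that can form fat, bone or cartilage) of C57BL/6J mice, and the question was what a temperature cooler than the body's interior does to them. The 5 day 0 libraries came from cells kept at 37°C throughout. The 5 day 1 libraries came from cells that were transferred to 31°C on day 15 after the start of adipocyte differentiation, and the 5 day 12 libraries from cells transferred on day 4. Every culture was taken for RNA on day 16, so the time spent at 31°C and the stage of differentiation at which the cells were cooled cannot be told apart. The labels do not say whether the 5 libraries of a group are separate mice or dishes, so p-values measure only the spread between these libraries.

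In mitosis the chromosomes are condensed, attached by their kinetochores to spindle microtubules, aligned under the spindle checkpoint, separated when the anaphase-promoting complex is switched on, and shared between daughter cells by cytokinesis. The mRNAs of most of these genes are low in resting cells and climb before division. Mature adipocytes do not normally divide, whereas progenitors do, and cultures induced to become fat can pass through rounds of division early in differentiation.

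Part of this control lies in the promoter. Many genes of this class carry a cell cycle genes homology region (CHR), an element read by the MuvB core of the DREAM complex and of B-Myb complexes, and CCAAT boxes, which bind NF-Y. RefSeq promoter windows of GRCm38.p6, running from 250 bases before to 50 bases after the annotated start, were found for 46 of the 52 members, in 51 windows; Aurkb, Kif20a, Spc24, Incenp, Tpx2 and Smc4 were not matched. Windows of 6 members are given here to show the layout, each from a different functional group and chosen by expression level: Bub3 (chr7:131560120-131560419, plus strand, the first of 2 overlapping windows), Plk1 (chr7:122159185-122159484, plus strand), Kif11 (chr19:37376132-37376431, plus strand), Cdca8 (chr4:124936868-124937167, minus strand), Cenpe (chr3:135212313-135212612, plus strand) and Pttg1 (chr11:43425932-43426231, minus strand). Capitals mark the CHR word TTTGAA and the CCAAT box, each read on either strand, so that TTCAAA and ATTGG are the same words reversed.
Bub3: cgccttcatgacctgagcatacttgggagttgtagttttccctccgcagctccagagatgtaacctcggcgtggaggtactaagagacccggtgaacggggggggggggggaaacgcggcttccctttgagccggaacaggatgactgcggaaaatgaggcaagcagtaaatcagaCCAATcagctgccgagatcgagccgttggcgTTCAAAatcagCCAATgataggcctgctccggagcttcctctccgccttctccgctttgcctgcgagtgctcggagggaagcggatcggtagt
Plk1: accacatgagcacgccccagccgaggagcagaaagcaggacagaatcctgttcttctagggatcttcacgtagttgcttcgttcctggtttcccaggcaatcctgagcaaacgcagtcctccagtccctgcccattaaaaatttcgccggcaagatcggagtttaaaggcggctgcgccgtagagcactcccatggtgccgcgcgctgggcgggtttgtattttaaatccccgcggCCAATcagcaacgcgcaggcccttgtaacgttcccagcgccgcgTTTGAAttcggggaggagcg
Kif11: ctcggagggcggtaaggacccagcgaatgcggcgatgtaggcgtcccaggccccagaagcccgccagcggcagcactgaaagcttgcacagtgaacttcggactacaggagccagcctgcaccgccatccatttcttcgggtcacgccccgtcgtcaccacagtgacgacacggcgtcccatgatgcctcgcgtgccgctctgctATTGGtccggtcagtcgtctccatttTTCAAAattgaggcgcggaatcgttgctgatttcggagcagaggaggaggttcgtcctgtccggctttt
Cdca8: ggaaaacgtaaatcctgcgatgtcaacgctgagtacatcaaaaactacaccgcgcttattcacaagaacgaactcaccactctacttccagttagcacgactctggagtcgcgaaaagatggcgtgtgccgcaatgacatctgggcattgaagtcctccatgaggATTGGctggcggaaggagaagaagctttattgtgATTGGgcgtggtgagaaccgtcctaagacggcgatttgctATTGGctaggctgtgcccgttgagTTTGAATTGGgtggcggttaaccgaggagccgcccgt
Cenpe: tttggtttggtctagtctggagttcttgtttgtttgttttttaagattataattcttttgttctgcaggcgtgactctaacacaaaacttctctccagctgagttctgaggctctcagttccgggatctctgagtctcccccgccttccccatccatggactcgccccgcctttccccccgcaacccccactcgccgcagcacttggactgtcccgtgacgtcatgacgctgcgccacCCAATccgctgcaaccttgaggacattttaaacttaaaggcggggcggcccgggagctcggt
Pttg1: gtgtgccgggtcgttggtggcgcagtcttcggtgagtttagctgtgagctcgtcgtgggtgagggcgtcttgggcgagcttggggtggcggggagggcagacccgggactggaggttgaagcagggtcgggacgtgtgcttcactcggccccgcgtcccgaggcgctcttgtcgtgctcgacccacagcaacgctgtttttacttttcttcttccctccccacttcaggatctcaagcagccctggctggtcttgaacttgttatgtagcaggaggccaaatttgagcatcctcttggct

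The CHR word began within 50 bases of the annotated start in 32 of the 51 member windows (62.7%), against 4.94% of all 32851 mouse promoter windows. In Kif11 it lay 19 bases before the start, in Bub3 43 bases before it, and in Cdca8 and Plk1 it lay 13 and 30 bases after it. A CCAAT box was found in 40 member windows (78.4%) and in 37.4% of all windows, and 2 or more boxes in 45.1% against 11.7%. Cdca8 carried 4 boxes, and it is the only member in whose window the CHR word and a CCAAT box shared a base. The E2F words TTTCCCGC, TTTGCCGC, TTTCGCGC and TTTGGCGC, also on either strand, were found in 3 member windows (5.88%, against 2.26% of all). Cenpe held 1 CCAAT box and no CHR word, and Pttg1 held none of these words. A match in letters is a description of the window, and windows of the same gene can overlap. Among members with a window, a CHR word near the start stood in 28 of the 42 that were called higher at day 12, as described below, and in 2 of the other 4, too few for a comparison.

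**Figure D1:**
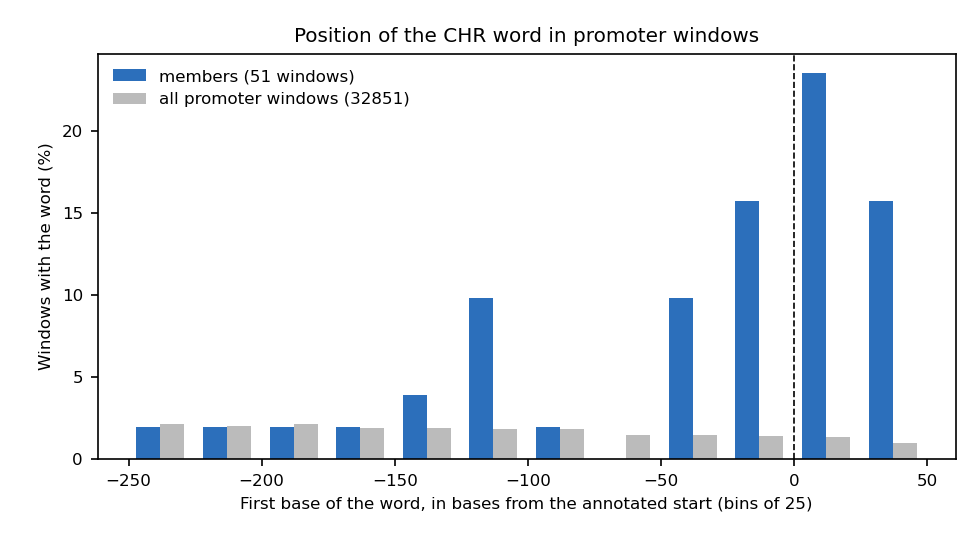
Share of promoter windows (%) in which the CHR word TTTGAA, on either strand, begins in each bin of 25 bases, plotted by distance from the annotated start; blue bars are the 51 member windows and grey bars all 32851 windows. The highest member bin, from 0 to 24 bases after the start, holds 23.5% of member windows against 1.31% of all windows.

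The libraries held between 64648178 and 133270973 counted reads, and levels are given as CPM, the counts scaled by TMM to a common library size. The lowest count of any member in any library was 60. Most adipocyte markers were well expressed in every group, but they did not move alike. Lpl, the lipase that frees fatty acids from lipoproteins, averaged 1950, 2340 and 2110 CPM at days 0, 1 and 12, Fabp4, a fatty acid binding protein, 828, 1400 and 1620 CPM, and Cfd (adipsin) 1220, 1270 and 582 CPM, while Retn (resistin) was at 0.272, 0.435 and 0.935 CPM. Stromal markers were present too, with the matrix protein genes Dcn and Lum at 5980 and 2630 CPM at day 0, but on the same list Eng was at 9.07 CPM and the progenitor markers Dpp4 and Pi16 were near 0, at 0.0343 and 0.0125 CPM. In whole cultures, a larger share of dividing cells and more mRNA per dividing cell cannot be told apart.

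After 12 days at 31°C, nearly all of the mitotic genes were higher than at 37°C. Of the 52 members, 47 were called higher and 1, Pttg1, was called lower, where a call needs an adjusted p below 0.05 together with a fold above 1.5. Of all genes tested, 12.9% were called higher and 16.2% lower. The median log2 change (the fitted log2 fold change) was 1.64 for the members and 0.01 for all genes. Summed over the members, the level was 401 to 445 CPM in the day 0 libraries (median 421) and 887 to 998 CPM in the day 12 libraries (median 959). For 49 members every day 12 library lay above every day 0 library, an arrangement seen for 33% of all genes, and for Pttg1 every one lay below (31.7% of all genes). Bub3, Spc25, Ckap2 and Smc4 were not called.

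**Figure D2:**
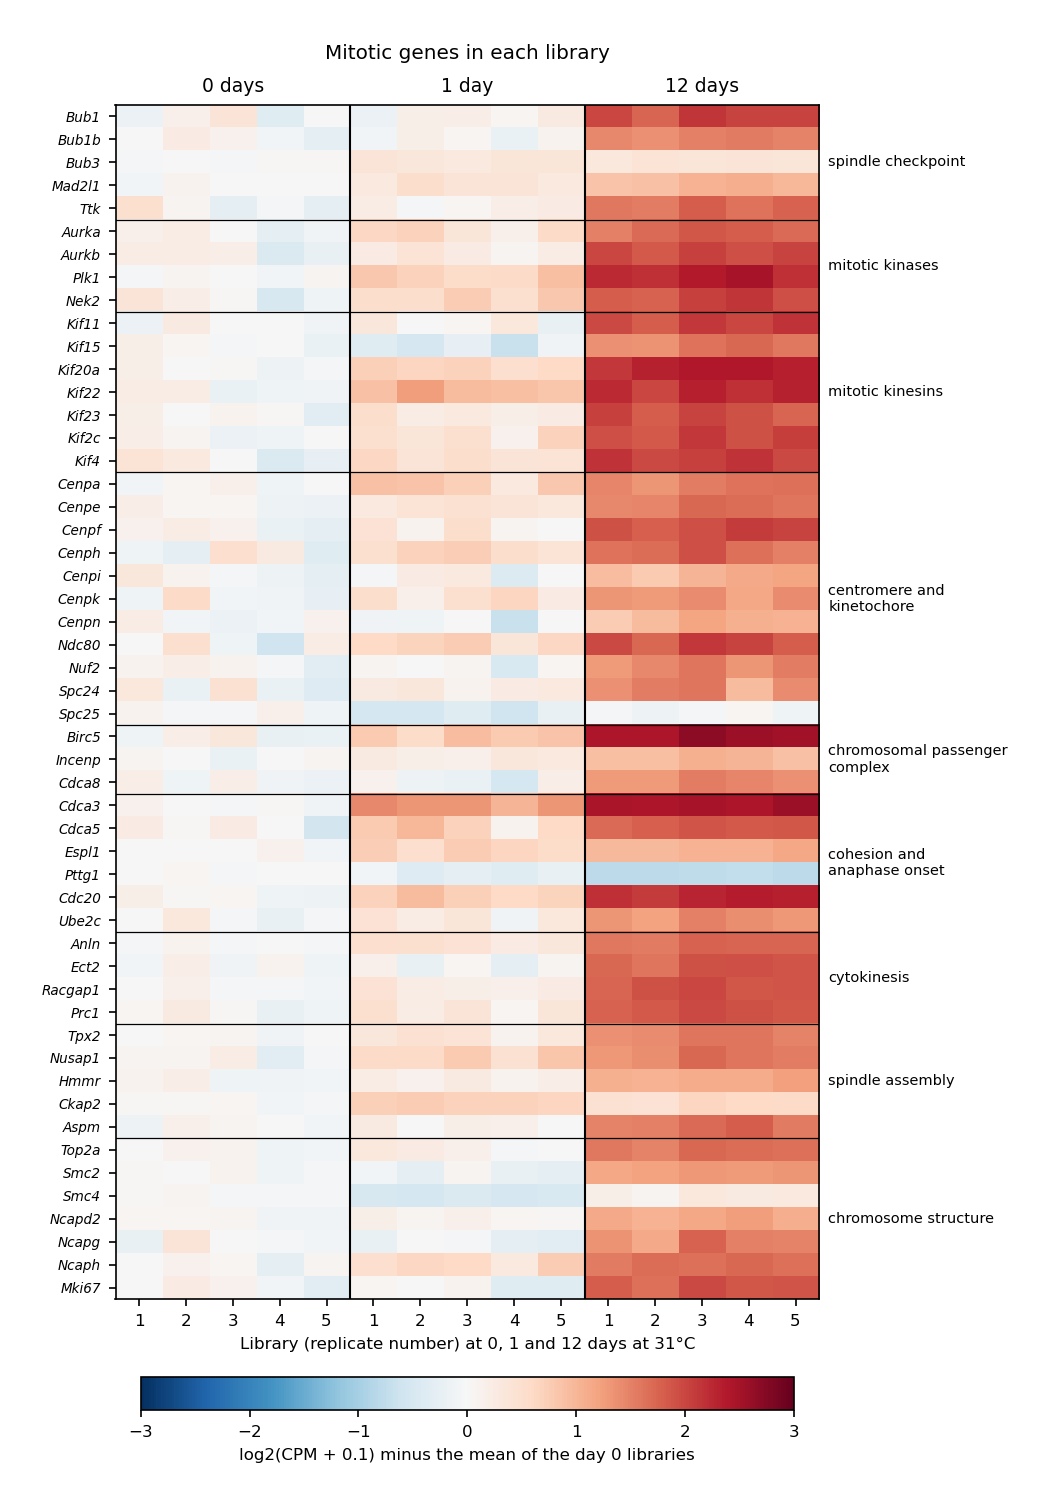
Each row is a member and each column a library, with color giving log2(CPM + 0.1) minus the mean of the day 0 libraries; lines separate the groups and the functional groups. The day 12 columns are red for 47 called members and blue for Pttg1, while the day 1 columns are mixed.

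Within a group the members moved together from library to library. The median member of day 12 replicate 3 stood 0.10 above its group mean on the log2 scale, with 46 of 52 members above it, and that of replicate 2 stood 0.11 below, with 4 members above. Day 0 replicates 4 and 5 stood 0.10 and 0.11 below their group mean, with 11 and 10 members above it, and day 1 replicate 4 stood 0.13 below, with 9. The median over all genes stayed within 0.01 of the group mean in each library. These shifts are small beside the median change at day 12 (1.64) but not beside that at day 1 (0.27). With any library left out the count of members called higher stayed at 47 at day 12 and was 11 to 15 at day 1.

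Marker genes of other kinds of cell also differed between the groups. Of 13 adipocyte markers, 3 were called higher and 6 lower at day 12 (12.9% and 16.2% of all genes). Their summed level was 6260 to 6850 CPM at day 0, 7330 to 7850 CPM at day 1 and 5890 to 6530 CPM at day 12. Of 13 stromal and progenitor markers 11 were tested, and at day 12 edgeR and DESeq2 each called 0 higher and 4 lower (3 and 6 at an unadjusted p under 0.05). Their summed level was 10000 to 10700, 9360 to 9580 and 7490 to 7890 CPM. That sum was led by Dcn and Lum, and the list did not move alike. At day 12, 4 of the 11 tested genes had log2 changes above 0 and 7 below (median -0.25). At day 1, 7 lay above 0 and 4 below (median 0.11). For 9 mesothelial and simple epithelial markers the sum was 10.1 to 11.7, 13 to 15.5 and 30 to 44.3 CPM, which at day 12 was mostly Msln (mean 29.3 CPM, against 0.628 CPM at day 0), while Wt1 and Upk3b were near 0. The part of these markers in the result was not tested.

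The spindle checkpoint delays anaphase until every kinetochore is attached, and 4 of its 5 members rose at day 12. Mad2l1, which encodes the checkpoint protein Mad2, measured 6.51, 7.39, 6.91, 6.85 and 6.93 CPM in the day 0 libraries, 8.53, 9.94, 9.02, 9.04 and 8.48 CPM at day 1, and 12.5, 12.7, 14.3, 14.8 and 14 CPM at day 12. The groups did not overlap, and the log2 change at day 12 was 0.98 (SE 0.06, adjusted p = 8e-15). Bub1 and Bub1b, kinetochore-bound checkpoint proteins, and Ttk, the kinase known as Mps1, rose 4.08-fold, 2.79-fold and 3.27-fold. Bub3, the partner that brings Bub1 to kinetochores (chr7:131560222-131571895), was the exception. It measured 58.6, 60.1, 58.4, 61.4 and 61.2 CPM at day 0, 77.9, 75.4, 73.1, 76.7 and 76.7 CPM at day 1, and 74.8, 79.9, 77.6, 78.4 and 77.1 CPM at day 12. Both cooled groups lay above day 0 in every library, but the fold at day 12 was 1.29 (adjusted p = 6.15e-13), short of the limit of 1.5.

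The 4 mitotic kinases rose by 3.36-fold to 5.05-fold. Plk1, the Polo-like kinase that acts at centrosomes, kinetochores and the midbody (chr7:122159439-122169873), measured 2.59, 2.83, 2.66, 2.54 and 2.84 CPM at day 0, 4.81, 4.42, 3.98, 4.06 and 5.08 CPM at day 1, and 13.1, 12.7, 14.4, 15.3 and 12.7 CPM at day 12. The 3 groups were fully separate, and the log2 change at day 12 was 2.34 (SE 0.08, adjusted p = 2.67e-21). Aurka, the Aurora kinase of the spindle poles, measured 2.86, 2.97, 2.57, 2.07 and 2.35 CPM at day 0, 3.97, 4.18, 3.28, 2.82 and 3.82 CPM at day 1 and 7.49, 8.48, 9.52, 9.22 and 8.54 CPM at day 12 (log2 change 1.75, SE 0.10, adjusted p = 1.91e-15). A single day 1 library, at 2.82 CPM, lay within the day 0 range. Aurkb, the Aurora kinase of the chromosomal passenger complex, and Nek2, a centrosomal kinase, rose 3.98-fold and 3.93-fold.

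All 7 mitotic kinesins, the motors that slide, bundle and shorten spindle microtubules, rose at day 12, with a median log2 change of 2.05. Kif20a, a motor of the central spindle, was the most abundant, at 8.31, 7.39, 7.61, 6.68 and 7.06 CPM at day 0, 12.1, 11.6, 11.9, 10.5 and 11.2 CPM at day 1 and 32.3, 36.8, 39.3, 39.2 and 37.5 CPM at day 12. The 3 groups did not overlap (log2 change at day 12 2.32, SE 0.06, adjusted p = 4.3e-24). Of its exon bases, 29.3% lie in Cdc23 on the opposite strand, and the strand setting of the counting is not stated; Cdc23 itself had a log2 change of -0.42 at day 12. Kif11 (Eg5), which pushes the spindle poles apart, measured 3.05, 4.16, 3.47, 3.46 and 3.18 CPM at day 0, 4.37, 3.4, 3.59, 4.3 and 2.96 CPM at day 1 and 13.9, 12.4, 15.3, 14.1 and 15.7 CPM at day 12. Days 0 and 1 overlapped and day 12 stood clear of both (log2 change 2.05, SE 0.10, adjusted p = 3.03e-17). Kif15, which can back up Kif11, had a log2 change of -0.38 at day 1 (adjusted p = 0.00745, not called) and 1.58 at day 12. Kif4, a chromosome-arm motor, has 15.1% of its exon bases in Pdzd11 on the opposite strand, whose log2 change at day 12 was -0.20 (not called).

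Of 11 centromere and kinetochore genes, 10 rose at day 12. Cenpf, a large protein of the outer kinetochore, measured 3.59, 3.81, 3.58, 2.82 and 2.65 CPM at day 0, 4.4, 3.5, 4.71, 3.45 and 3.27 CPM at day 1 and 12.6, 11.5, 12.7, 14.3 and 13.6 CPM at day 12 (log2 change 1.97, SE 0.10, adjusted p = 3.38e-15). Cenpe, the kinetochore motor that brings chromosomes to the spindle equator, measured 4.98, 4.45, 4.5, 3.87 and 3.8 CPM at day 0, 5.25, 5.76, 5.97, 5.64 and 5.38 CPM at day 1 and 11.9, 12, 14.3, 14 and 13.2 CPM at day 12 (log2 change 1.59, SE 0.08, adjusted p = 1.02e-17). Neither gene had a day 12 library near the range of the other groups. The gene that was not called was Spc25 (chr2:69193895-69206194), a subunit of the Ndc80 complex that couples kinetochores to microtubules. It measured 6.1, 5.45, 5.45, 6.3 and 5.19 CPM at day 0, 3.89, 3.94, 4.42, 3.72 and 4.84 CPM at day 1 and 5.56, 5.12, 5.57, 5.92 and 5.18 CPM at day 12. Day 1 lay below day 0 in every library and day 12 overlapped day 0, with a log2 change of -0.45 at day 1 (adjusted p = 2.48e-05, not called) and -0.06 at day 12 (SE 0.08, adjusted p = 0.513). The other subunits of that complex, Ndc80, Nuf2 and Spc24, rose 3.95-fold, 2.75-fold and 2.67-fold.

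The chromosomal passenger complex corrects faulty attachments and later guides cytokinesis. Birc5 (survivin, chr11:117849251-117855743), the subunit that docks the complex on chromatin, had the largest log2 change of the 52 members at day 12. It measured 1.67, 2.13, 2.36, 1.56 and 1.57 CPM at day 0, 3.25, 2.72, 3.59, 3.21 and 3.4 CPM at day 1 and 10.3, 10.2, 12.3, 11.4 and 10.9 CPM at day 12, with no overlap between the 3 groups (log2 change 2.57, SE 0.10, adjusted p = 1.23e-19). Incenp, the scaffold, measured 11.4, 10.8, 9.37, 10.8 and 11.4 CPM at day 0, 12.9, 12.2, 11.9, 13.5 and 13.2 CPM at day 1 and 20, 20.3, 22.5, 21.7 and 19.7 CPM at day 12 (log2 change 0.95, SE 0.06, adjusted p = 1.07e-15). Cdca8 (borealin) measured 4.23, 3.36, 4.19, 3.38 and 3.23 CPM at day 0, 4.03, 3.29, 3.15, 2.51 and 4.24 CPM at day 1 and 9.07, 9.01, 10.8, 10.2 and 9.6 CPM at day 12 (log2 change 1.40, SE 0.11, adjusted p = 5.38e-12). For Cdca8 the day 0 and day 1 libraries were intermixed and the day 12 libraries were separate.

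Among the 6 genes grouped under cohesion and anaphase onset, 5 rose at day 12 and Pttg1 fell. Cdca3 was counted in this group, although it helps to trigger mitotic entry through the degradation of Wee1 (chr6:124829547-124833701). It measured 3.13, 2.84, 2.81, 2.97 and 2.65 CPM at day 0, 7.99, 7.35, 7.36, 5.97 and 7.38 CPM at day 1 and 16.1, 15.9, 16.3, 15.9 and 17.5 CPM at day 12. The groups formed 3 separate steps (log2 change at day 12 2.50, SE 0.07, adjusted p = 3.89e-23). Cdc20, the activator of the anaphase-promoting complex, measured 5.01, 4.59, 4.62, 4.07 and 4 CPM at day 0, 7.23, 8.67, 7.34, 6.81 and 7.12 CPM at day 1 and 20.6, 19.5, 21.9, 23.2 and 22.7 CPM at day 12, again in separate steps (log2 change 2.27, SE 0.07, adjusted p = 2.75e-22). Ube2c, the ubiquitin-conjugating enzyme of the same complex, Cdca5 (sororin), which protects cohesin, and Espl1 (separase), which cleaves it, rose 2.57-fold, 3.67-fold and 2.07-fold. Ube2c shares 22.8% of its exon bases with Tnnc2 on the opposite strand, which had too few reads to be tested.

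Pttg1 encodes securin, the inhibitor that holds separase in check (chr11:43420250-43426251). It measured 50.3, 52.5, 48.7, 49.8 and 50.5 CPM at day 0, 47.6, 38.4, 40.8, 39.2 and 43.2 CPM at day 1 and 29.1, 29.4, 29.5, 30.3 and 29.3 CPM at day 12. The groups did not overlap and ran opposite to those of Espl1, whose means were 6.3 ± 0.332, 9.87 ± 0.733 and 13 ± 0.753 CPM (SD, n = 5 each). The log2 change of Pttg1 at day 12 was -0.77 (SE 0.04, adjusted p = 3.57e-16). With libraries scaled by total counts alone it was -0.58 and no longer past the fold limit.

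All 4 cytokinesis genes rose. Anln (anillin), which links actin, myosin and septins in the cleavage furrow, measured 23.5, 25.8, 23.3, 24.4 and 23.4 CPM at day 0, 34.4, 33.5, 32.3, 28.6 and 30.7 CPM at day 1 and 72.2, 71.5, 81.9, 81.1 and 81 CPM at day 12 (log2 change 1.69, SE 0.05, adjusted p = 1.83e-20). Racgap1, a subunit of centralspindlin, measured 8.47, 9.42, 8.11, 8.23 and 8.02 CPM at day 0, 11.5, 9.82, 9.53, 9.37 and 10.1 CPM at day 1 and 28.4, 31.8, 34, 31.1 and 31.3 CPM at day 12 (log2 change 1.89, SE 0.06, adjusted p = 2.02e-22). For both, the lowest day 12 library was far above the highest day 1 library. Ect2, the exchange factor that activates RhoA at the cell equator, and Prc1, which bundles microtubules of the central spindle, rose 3.59-fold and 3.67-fold, so the 4 log2 changes lay between 1.69 and 1.89. Rccd1, on the opposite strand over 11.1% of the exon bases of Prc1, had a log2 change of 0.39 at day 12 and was not called.

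Of 5 spindle assembly genes 4 rose at day 12. Tpx2, the activator of Aurora A on the spindle, measured 10.5, 10.8, 11, 9.67 and 10.3 CPM at day 0, 13.2, 14.4, 13.8, 11.3 and 13.1 CPM at day 1 and 27.3, 28.2, 32, 31.8 and 29.7 CPM at day 12 (log2 change 1.51, SE 0.06, adjusted p = 3.6e-20). Nusap1, Hmmr and Aspm, which bind spindle microtubules or their poles, rose 2.87-fold, 2.18-fold and 3.14-fold. Ckap2, a microtubule-stabilizing protein (chr8:22168160-22185819), was arranged differently. It measured 19.6, 19.4, 19.9, 18 and 18.2 CPM at day 0, 31.1, 32.2, 30.6, 30.6 and 29.8 CPM at day 1 and 26.3, 25.8, 29.8, 28.7 and 28.4 CPM at day 12. Both cooled groups lay above day 0 in every library, and the fold of 1.46 at day 12 (adjusted p = 1.41e-12) fell short of the limit that the fold of 1.62 at day 1 passed. Ckap2 was called higher at day 12 with total counts alone or with reference genes as the scale (log2 change 0.74 and 0.60).

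The genes of chromosome structure were higher at day 12 in 6 of 7 cases. Top2a, the topoisomerase that untangles sister DNAs, measured 19, 20.8, 20.4, 17.3 and 18.1 CPM at day 0, 23.9, 22.7, 21.2, 18.3 and 19.1 CPM at day 1 and 57.5, 53.8, 62.7, 61.4 and 60.6 CPM at day 12. The first pair of groups overlapped and day 12 did not (log2 change 1.63, SE 0.07, adjusted p = 2.58e-13). Mki67, the proliferation marker Ki-67, rose 3.59-fold, from 12.6 ± 1.85 to 45.3 ± 3.69 CPM (SD, n = 5 each), and the condensin genes Smc2, Ncapd2, Ncapg and Ncaph rose 2.2-fold to 3.17-fold. Of the exon bases of Ncapg, 13.4% lie in Lcorl on the opposite strand, which was itself called higher (log2 change 0.77 at day 12). The condensin ATPase gene Smc4 (chr3:69004738-69034623) measured 49.6, 51.2, 46.8, 46.7 and 46.2 CPM at day 0, 34.3, 33.5, 35.6, 33.7 and 35.2 CPM at day 1 and 54.3, 50.8, 60.1, 57.6 and 58.6 CPM at day 12. It was lowest at day 1 in every library, with a log2 change of -0.48 at day 1 (adjusted p = 8.99e-12, not called) and 0.23 at day 12 (SE 0.04, adjusted p = 7.91e-06, not called).

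After 1 day at 31°C the change was smaller and covered fewer genes. Of the 52 members 13 were called higher and 0 lower, where 7.69% of all genes were called higher and 13.4% lower, and at an adjusted p under 0.05 without the fold limit 30 were higher and 5 lower (35.2% and 36.1% of all genes). DESeq2 also called 13 and 0, and 32 were higher and 5 lower at an unadjusted p under 0.05 in edgeR (36.2% and 37% of all genes). The median log2 change was 0.27, with 41 members above 0, and the median of all genes was -0.01. For 18 members every day 1 library lay above every day 0 library, and for Spc25, Pttg1 and Smc4 every one lay below (28.6% and 28.8% of all genes). Summed over the members, the day 1 libraries held 448 to 503 CPM. Calls were made in 6 functional groups: in the kinases (2 of 4), kinesins (2 of 7), kinetochore genes (2 of 11), passenger complex (1 of 3), cohesion and anaphase onset (4 of 6, Cdca3 among them) and spindle assembly (2 of 5). In the spindle checkpoint, cytokinesis and chromosome structure groups 0 members were called by edgeR, though Ncaph of the last group was close to the limit (fold 1.49, adjusted p = 3.08e-07). At an adjusted p under 0.05 alone 2 of 5, 3 of 4 and 1 of 7 were higher, where the share of all genes was 35.2%. At an unadjusted p under 0.05 the counts higher were 2, 3 and 2, with 2 chromosome structure genes lower, and DESeq2 called 0 in these groups.

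Cdca3 had the largest change at day 1, a fold of 2.5 (log2 change 1.32, SE 0.07, adjusted p = 6.25e-16). Kif22, a chromosome-arm kinesin that pushes chromosomes toward the equator, measured 2.82, 2.84, 2.07, 2.2 and 2.23 CPM at day 0, 4.55, 5.92, 4.78, 4.6 and 4.36 CPM at day 1 and 11.7, 9.89, 12.6, 11.4 and 12.3 CPM at day 12 (fold at day 1 1.98, adjusted p = 5.94e-10). Cenpa, the histone H3 variant that marks centromeres, measured 3.21, 3.56, 3.78, 3.09 and 3.37 CPM at day 0, 6.33, 6.26, 5.62, 4.17 and 6 CPM at day 1 and 9.6, 8.68, 9.99, 10.7 and 10.8 CPM at day 12 (fold at day 1 1.67, adjusted p = 4.89e-08). In both the groups were in separate steps. Birc5, Plk1 and Cdc20, whose libraries are given above, rose 1.75-fold, 1.66-fold and 1.66-fold at day 1. The other day 1 calls were Kif20a, Ckap2, Nek2, Ndc80, Cdca5, Espl1 and Nusap1, with log2 changes of 0.61 to 0.70, close to the limit of 0.585. Nek2, Ndc80, Cdca5 and Nusap1 lost their call when a single library was left out: Nek2 without day 0 replicate 4 or 5 or day 1 replicate 5 (lowest log2 change 0.52), Ndc80 without day 0 replicate 3 or 4 or day 1 replicate 3 (0.48), Cdca5 without day 0 replicate 5 or day 1 replicate 2 (0.55) and Nusap1 without day 0 replicate 4 (0.58). Ncaph and Cenph, each with a log2 change of 0.58 and not called, gained a call with total counts as the scale (0.60 for each). They also gained it when some single libraries were left out. With reference genes as the scale 7 members were called at day 1, and 3 (Kif22, Cdca3 and Ckap2) when the fold itself was tested against 1.5.

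**Figure D3:**
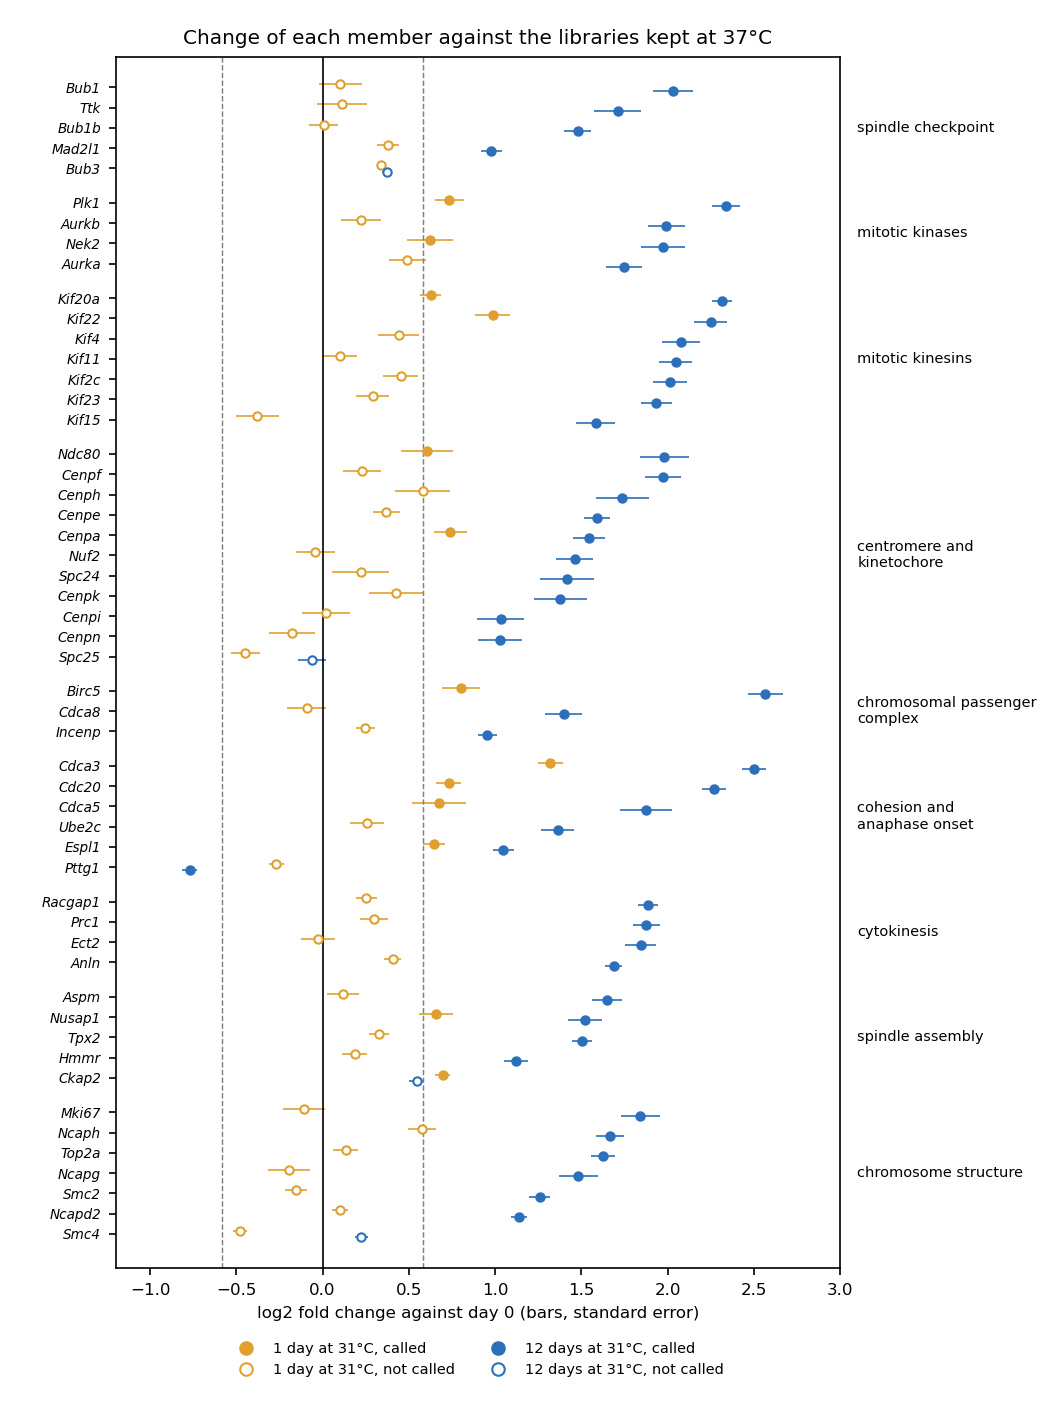
Fitted log2 change against day 0 for each member (orange, 1 day at 31°C; blue, 12 days), with bars for the standard error, filled points for called changes, and dashed lines at a fold of 1.5 in either direction. At day 12 the points of 47 members lie to the right of the limit, while at day 1 those of 13 do. Past the limit on the left lies only Pttg1 at day 12.

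Between day 1 and day 12, 47 members were called higher and 0 lower (10.6% and 8.5% of all genes), with a median log2 difference of 1.32. DESeq2 gave 47 and 0, and at an unadjusted p under 0.05 in edgeR 49 were higher and 2 lower (35.5% and 33.8% of all genes). For 49 members every day 12 library lay above every day 1 library, and for Pttg1 every one lay below (26.5% and 25.9% of all genes). The members that were not called were Bub3, Spc25, Espl1, Pttg1 and Ckap2. Smc4 was called in this comparison (log2 difference 0.71, adjusted p = 1.88e-15). Espl1, with a log2 difference of 0.40 (adjusted p = 1.1e-06), had log2 changes against day 0 of 0.65 at day 1 and 1.05 at day 12. The largest differences were those of Kif15 (1.96), Mki67 (1.95) and Kif11 (1.95). None of these was called at day 1, where Kif15 and Mki67 had log2 changes below 0. Mad2l1 was at the limit (log2 difference 0.60) and lost its call without day 1 replicate 1 or 5 or day 12 replicate 3 or 4, with values of 0.57 to 0.58. These comparisons share their libraries with those against day 0.

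Levels of different genes can be set side by side per kilobase of exon. On that scale the 4 highest members at day 0 were Pttg1 at 25.2, Smc4 at 9.23, Bub3 at 8.55 and Ckap2 at 5.92 CPM per kb, and these are 4 of the 5 members that were not called higher at day 12. The other 48 members lay between 0.168 and 2.83 CPM per kb at day 0 and between 0.493 and 11.6 CPM per kb at day 12. Across the 52 members the log2 level per kb at day 0 and the log2 change at day 12 had a Pearson correlation of -0.579 (Spearman -0.325), and across the 48 members below the 4 highest it was -0.173 (Spearman -0.144). Both quantities use the same day 0 libraries, and the values are a description.

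**Figure D4:**
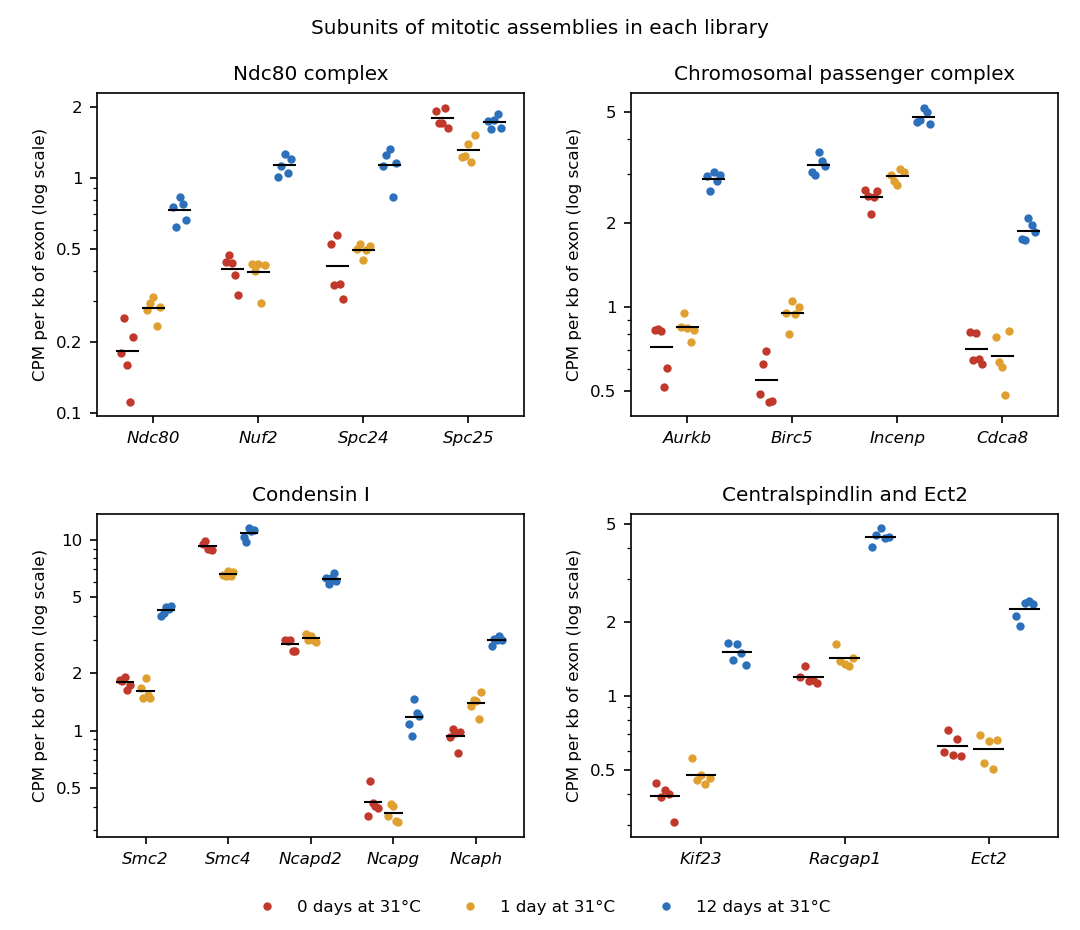
CPM per kilobase of exon, on a log axis, for the subunits of 4 assemblies in every library (red, 0 days; orange, 1 day; blue, 12 days at 31°C), with black lines at the group means. In the Ndc80 complex the 3 lower subunits approach Spc25 at day 12, and in condensin I Smc4 stays above the others in each group.

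In 3 of 4 assemblies the levels of the subunits lay closer together at day 12. In the Ndc80 complex the highest subunit, Spc25, stood at 1.79 ± 0.15 CPM per kb at day 0 and the lowest, Ndc80, at 0.184 ± 0.0536 (SD, n = 5 each), a ratio of 9.73. At day 12 they stood at 1.72 ± 0.102 and 0.727 ± 0.0857, a ratio of 2.37, and the ratio of highest to lowest subunit within a library was 6.71 to 17.7 at day 0, 4.23 to 5.35 at day 1 and 2.11 to 2.61 at day 12. For the passenger complex, with Incenp highest, the ratio within a library was 3.11 to 5.67 at day 0 and 2.45 to 2.69 at day 12. For condensin I, with Smc4 highest and Ncapg lowest, it was 18 to 26.8 at day 0 and 7.88 to 10.4 at day 12. Centralspindlin and Ect2 gave 2.7 to 3.67 at day 0 and 2.43 to 3.3 at day 12, which overlap. These ratios follow from the fold changes already given and were not tested.

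Other genes of the cell cycle were counted by list in the same fit. Of 58 other mitotic genes 41 were called higher at day 12 and 1 was called lower (12.9% and 16.2% of all genes), with a median log2 change of 1.17. At day 1 the calls were 9 and 3 (7.69% and 13.4% of all genes). The most abundant of them were Ckap5, a microtubule polymerase, and Ncaph2, a condensin II subunit, with log2 changes of -0.43 and 0.13 at day 12, neither called. Of 31 subunits of the anaphase-promoting complex, cohesin and the microtubule nucleation machinery, 0 were called by edgeR in either direction at either day; at an adjusted p under 0.05 alone 19 were higher and 6 lower at day 12, where 39.2% and 37.2% of all genes were (median log2 change 0.13). At an unadjusted p under 0.05 these counts were also 19 and 6 at day 12 (39.7% and 37.8% of all genes) and 13 and 11 at day 1, and DESeq2 called 0 at both. Numa1, which anchors spindle poles, and Anapc5, a subunit of the anaphase-promoting complex, stood at 198 and 163 CPM at day 0 and at 162 and 227 CPM at day 12. Thus the listed subunits of the anaphase-promoting complex, at 13.2 (Anapc10) to 163 CPM (Anapc5) at 37°C, were not called. The mRNAs of its activator Cdc20 and its partner enzyme Ube2c rose.

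Of 36 DNA replication genes 21 were called higher and 0 lower at day 12 by edgeR and by DESeq2 (median 0.76). The edgeR shares of all genes were 12.9% and 16.2%. At an unadjusted p under 0.05 in edgeR 33 were higher and 0 lower (39.7% and 37.8% of all genes). Rrm1, the large subunit of ribonucleotide reductase, had 34.1 ± 1.08 CPM at day 0 and 66.2 ± 2.86 at day 12 (SD, n = 5 each), and Pcna, the sliding clamp, 43.4 ± 1.92 and 53.0 ± 2.06, the latter not called. Of 9 mitotic entry cyclins and regulators of cyclin-dependent kinases 6 were called higher at day 12 (median 1.03), where 12.9% of all genes were. Cdk1, the kinase that drives mitotic entry, had 14.8 ± 0.478, 18.9 ± 0.562 and 28.6 ± 2.03 CPM in the day 0, day 1 and day 12 groups. Cdc25b, a phosphatase that activates Cdk1, had 13.4 ± 0.908 and 15.6 ± 0.744 CPM at days 0 and 12 and was not called.

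Of 23 transcriptional regulators of the cell cycle 8 were called higher at day 12 and 1 was called lower (12.9% and 16.2% of all genes). At day 1 edgeR and DESeq2 each called 0 higher and 5 lower (7.69% and 13.4% of all genes in edgeR). At an adjusted p under 0.05 alone 11 were higher, as at an unadjusted p under 0.05 (35.2% and 36.2% of all genes). The most abundant, Rbbp4 and Rb1, had log2 changes of 0.17 and -0.20 at day 12, neither called. The regulators that follow were picked for mention after their values were seen. E2f8 and E2f7, repressors of the E2F family, had log2 changes of 2.47 and 1.99 at day 12, and Foxm1 and Mybl2 (B-Myb), activators of late cell cycle genes, had 2.18 and 2.08 (SE 0.07 and 0.13), with 0.29 and 0.23 at day 1. The other genes called higher at day 12 were E2f2 (1.06), Nfyc (0.80), Tfdp1 (0.73) and Lin9 (0.69), and E2f1 was called lower (-1.17). The 5 genes called lower at day 1 were Nfya (-1.34), E2f2 (-1.26), E2f1 (-1.14), E2f7 (-0.70) and Rbl1 (-0.63). Thus the NF-Y subunit genes Nfya and Nfyc were called in opposite directions, at different days, and the third, Nfyb, was not called at either (log2 changes -0.13 and -0.05).

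**Figure D5:**
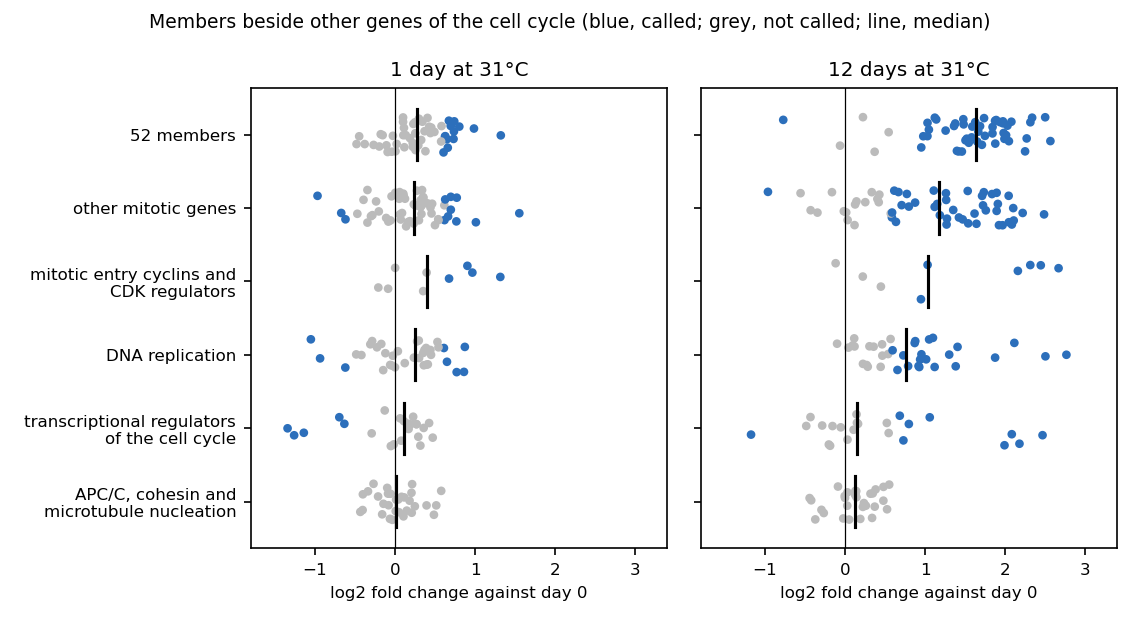
Fitted log2 changes against day 0 at 1 day (left) and 12 days (right) at 31°C for the 52 members and the genes of 5 other lists; blue points are called, grey points are not, and black lines are medians. At day 12 the medians are 1.64 for the members, 1.17 for other mitotic genes and 0.13 for the anaphase-promoting complex, cohesin and microtubule nucleation.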

How the data were processed

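RNA was sequenced in 15 libraries, 5 in each of 3 groups set by the labels. The authors checked reads with FastQC and aligned them to mm10 with TopHat2 2.0.13 and Bowtie2 2.2.1, and the values used here are the raw counts per gene that the authors made with HTSeq and deposited. Whether counting used the strand is not given in the sources used here. The tables of DESeq2 fold changes, p-values and regularized log values that the authors also deposited were not used. Per the submitters' processing notes, DESeq2 made those tables.

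Genes with low counts were removed with filterByExpr at a minimum count of 10, which left 14293 of 18804. Counts were scaled by TMM (factors 0.9459 to 1.094) and tested with the quasi-likelihood test of edgeR 4.0.16 (robust, no covariate, all 15 libraries in 1 fit) in R 4.3.3, with Benjamini-Hochberg adjustment over all genes tested. A call needed an adjusted p under 0.05 and a fold over 1.5. A count of 0 would allow 0.0225 to 0.0464 CPM, for counting error only.

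Gene coordinates and exon lengths came from GENCODE on GRCm38, the same assembly as mm10, and promoters from RefSeq. Overlapping exons of another gene covered over 10% of Kif20a (29.3%), Ube2c (22.8%), Kif4 (15.1%), Ncapg (13.4%) and Prc1 (11.1%), all on the opposite strand. The members and lists were chosen with earlier results of these data known. Genes shown library by library were the 2 most abundant of each of 9 functional groups, the 3 largest and 3 smallest changes at day 12, members not called at day 12, and the 6 largest called changes at day 1. In each other list the 2 most abundant genes were named, and others named from these lists were chosen after their values were seen. Assemblies were grouped after the values were seen. Alternatives covered scaling, filtering, DESeq2 1.42.0, the fold limit, the replicate number, the library number series and leaving out each library. Replicate numbers were not treated as pairs in the main fit. The 15 correlations of same-numbered libraries ran from -0.026 to 0.044, although 10 of 15 libraries correlated best with their own number. The result of 1 marker list is not reported here.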

Additional observations from a re-analysis of the deposited data

Results flagged for a closer look

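For 6 values 1 library stood far from the other 4 of its group, by a test of the gap between the extreme value and its neighbour against the range. Kif22 was at 5.92 CPM in day 1 replicate 2, with the nearest library at 4.78, and Cdc20 in the same library was at 8.67 CPM, with the nearest at 7.34. Day 1 replicate 4 was low for Cenpn (1.02 CPM, nearest 1.53) and for Nuf2 (1.86 CPM, nearest 2.56). Cenpk was at 1.49 CPM in day 0 replicate 2 (nearest 0.915), and Cdca3 at 17.5 CPM in day 12 replicate 5 (nearest 16.3). In all, 156 groups of 5 were examined, and chance alone flags about 1 in 20 of them. Without day 0 replicate 2, Cenpk was called higher at day 1 (log2 fold change 0.61, against 0.43 with it).

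The change from day 0 differed between day 12 and day 1 for 47 of the 52 members, by the direct comparison of day 12 with day 1 in edgeR. Each of the 47 was higher at day 12.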

How the results depend on the processing

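The count of 47 members called higher at day 12 was the same in every leave-one-out fit (47 to 47), as was the 1 called lower (1 to 1), and the median log2 fold change ran from 1.60 to 1.66. Against day 1 the count was 46 to 47, with 0 lower (0 to 0) and a median of 1.28 to 1.35. At day 1 against day 0, 11 to 15 members were called higher and 0 to 0 lower, with a median of 0.24 to 0.33. With total counts as the scale, 0 members were called lower at day 12 and the medians were 1.83 against day 0 and 1.49 against day 1. With reference genes as the scale, 7 members were called higher at day 1 and the median of day 12 against day 1 was 1.47. The 3 reference genes themselves moved at day 12 on the log2 scale, Ppia by 0.35 and the other 2 downward (lowest -0.27). Without the fold limit, 30 members were higher and 5 lower at day 1, and 2 were lower at day 12 against day 1. Testing the fold against 1.5 left 3 at day 1. Scaling moved the median of all genes at day 12 to 0.20 and the share of lower genes among calls from 55.7% to 35.9% with total counts, from 63.5% to 75.8% at day 1 with reference genes (median -0.11), and from 44.5% to 27.3% and 29% for day 12 against day 1.

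Some members near 0 changed sign. At day 1, Bub1b (0.01) was -0.094 with reference genes, -0.010 when genes under 1 CPM on average were removed and -0.026 in the 11 libraries of the larger library number series, Cenpi (0.02) was -0.082 with reference genes, and Ttk (0.11) was -0.018 in the larger series. With 1 library left out, Bub1b ran from -0.061 to 0.073, Cenpi from -0.053 to 0.125, Nuf2 from -0.118 to 0.047 and Ect2 from -0.073 to 0.032. Spc25 at day 12 was 0.13 with total counts, and Ckap2 at day 12 against day 1 was 0.023 with total counts and 0.003 with reference genes. The cause was not tested.

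With the replicate number as a replicate block, 14 members were called higher at day 1 (13 without), and 10 of 15 libraries correlated best with their own number, a hint from the data and not the design. Depth limits the members near 1 CPM, whose standard errors at day 12 reached 0.16 on the log2 scale. Strand and the makeup of the cultures were not measured.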

Other observations

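Markers of other cells that a culture grown from mouse tissue could hold were low or mixed. Keratinocyte markers summed to 47.9 to 55.2 CPM at day 0, 20.7 to 23.2 at day 1 and 58.1 to 66.4 at day 12, nearly all of it Trp63 (51.4, 20.4 and 61.0 CPM), while Krt10, the next, was at 0.754, 1.06 and 1.49 CPM and was called higher at day 12 (log2 fold change 1.00, adjusted p = 0.000268). Macrophage markers summed to 26.6 to 33.9, 42.4 to 48.6 and 30.1 to 34.5 CPM, led by Cd14 (20.7, 33.9 and 23.8 CPM) and Cd68 (7.5, 10.3 and 5.14 CPM). Of the 6 tested, 2 were called higher at day 12, neither of them Cd14 or Cd68, and the largest log2 fold change there was 1.475. At day 1, 2 were called higher and 1 lower. Cartilage markers summed to 234 to 325 CPM over all libraries, led by Col2a1 and Sox9, and 2 of the 3 tested were called lower at day 12. Endothelial and skeletal muscle lists never summed to more than 1.79 and 1.36 CPM in a library. Of 4 tested endothelial genes, Pecam1 and Kdr were called higher at day 12 and Vwf lower. No listed marker found among the 18804 genes was at 0 in all 15 libraries. Tyrobp, Myod1 and Myf5 were not found there by name and were not analysed here. Of the 9 marker lists, the mesothelial one alone had a sum that was higher at day 1 than at day 0 and higher at day 12 than at day 1 with no overlap between groups, as the summed members did. The steps of that sum came from different genes: Krt8 averaged 8.44, 11.8 and 5.71 CPM at days 0, 1 and 12, and Msln 0.628, 0.87 and 29.3 CPM. Krt8 was called lower at day 12 against day 1, and Krt19 lower at day 1 against day 0. The part of this list in the result was not tested.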
